A study of Mus musculus with 15 samples.

Results

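Mouse embryonic stem (ES) cells that lack a working Mettl5 gene were differentiated for 6 days along 2 routes, and the mRNA of both cultures was compared. One route was growth in N2B27 medium, a serum-free medium used to obtain neural cells, and the other was growth as embryoid bodies (EBs), floating aggregates that form without the self-renewal factor LIF. The comparison holds 3 knockout (KO, Mettl5-/-) N2B27 libraries and 3 KO EB libraries, and a difference is always given as N2B27 minus EB. Genes were included where at least 2 of these 6 libraries had an FPKM (fragments per kilobase of transcript, scaled to the depth of the library) of at least 1, which held for 12459 of the 18762 genes in the table (66.4%). Of these, 585 reached an FPKM of 1 in N2B27 libraries and in no EB library, and 643 in EB libraries and in no N2B27 library, so such genes had to differ. Among the genes named below, those that reached it in N2B27 alone include Prdm12, Tmem132c, Pdgfra, Wnt3a, Lmx1a, Lmx1b, Neurog1, Pax3, Pax7, Hes5 and Bmp6. Those that reached it in EBs alone include Zscan4f, Dnmt3l, Ndrg2, Foxd3, Lefty2, Fgf4, Mixl1, Cer1, Etv2, Hbb-bh1 and Pecam1. Rab25, Gad1, Hoxb2, Hoxb3, Stra8, Sox15, Hand1 and Lat reached it in EBs alone as well. At the edge of the filter, 150 included genes had a second highest value from 1 to under 1.1 FPKM, and 170 genes from 0.9 to under 1 FPKM stayed out.

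All cells were of strain C57BL/6N per the labels. The KO EB group and the KO N2B27 group share the Mettl5-/- genotype and the age of the culture, and differ in medium and in attachment, since EB dishes were coated to keep cells from attaching. They differ in these respects together, which cannot be told apart. KO ES cells at day 0 (3 libraries) and wild type (WT) cultures of each kind (2 libraries each) served for reference. Each WT pair joins a library titled Ctr and a library titled WT, and both were taken as wild type. The main fit also took its estimate of the spread from all 15 libraries. Which part of Mettl5 was deleted, and whether the 3 KO lines are separate clones, is not given in the sources used here. Separate cultures are not stated for the libraries either, and the p-values therefore rest on library-to-library spread, part of which may be technical.

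METTL5 places N6-methyladenosine (m6A) on the RNA of the small ribosomal subunit and needs TRMT112 as a partner. ES cells leave the pluripotent state when LIF is withdrawn. In defined N2B27 medium without mesoderm-inducing factors they tend towards neural progenitors, whereas EBs pass through a primed, epiblast-like state and form primitive streak, mesoderm, endoderm and epithelium.

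The 6 libraries resembled each other within a culture. Across genes, which are not independent replicates, log values correlated with r = 0.985 to 0.9941 within a group and 0.8739 to 0.9076 between groups. Depth was estimated from the steps of low values at 17500000 to 18600000 fragments per library, so that 1 FPKM on a 1 kb transcript stands for 17.5 to 18.6 fragments. The summed FPKM was 535578 to 554986 in EBs and 451651 to 478021 in N2B27, which makes the calls near no change depend on the scaling. KO N2B27 replicate 2 was the N2B27 library closest to the EBs (r = 0.8972 to 0.9076), and its values are given where they stand apart. In these bulk cultures, fewer cells of a type and less RNA per cell cannot be told apart.

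Mettl5 (Entrez 75422, chromosome 2, positions 69871195 to 69886634 of GRCm38.p6) was still detected in every KO library. It had 9.07, 5.22 and 5.41 FPKM in the KO EBs and 3.91, 6.41 and 3.29 FPKM in KO N2B27, against 17.7 and 19.79 FPKM in WT EBs and 8.37 and 8.65 FPKM in WT N2B27. The 2 KO groups overlapped, and each KO library was below both WT libraries of its culture. The KO difference between cultures was -0.45 ± 0.20 (SE) on the log2(FPKM + 1) scale and missed the threshold (adjusted p = 0.0599). It passed without KO EB replicate 2 (adjusted p = 0.0317), KO EB replicate 3 (0.0466) or KO N2B27 replicate 2 (0.00564). Trmt112, the partner of METTL5, had 107.54, 110.27 and 91.33 FPKM in EBs and 91.23, 93.54 and 75.86 FPKM in N2B27 (log2 -0.24 ± 0.10, adjusted p = 0.0405), and its call was lost without KO EB replicate 1, KO EB replicate 2 or KO N2B27 replicate 3 (adjusted p = 0.112, 0.127 and 0.195). Under TPM the Trmt112 difference was -0.022 (adjusted p = 0.823), and the call was also lost without the filter (0.0533) and with only the libraries compared (0.0807).

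The cultures differed at most genes. With limma on log2(FPKM + 1), 4950 genes (39.7% of those tested) were higher in N2B27 and 3636 (29.2%) lower at an adjusted p under 0.05, and 3873 were not called. Those that differed at least 2-fold were 1148 higher (9.21%) and 962 lower (7.72%), and at least 8-fold 64 higher and 65 lower. The median difference over all genes was 0.076 on the log2 scale. The 3 N2B27 libraries lay outside the range of the 3 EB libraries for 4720 of the genes called higher and 3429 of those called lower. When each library was rescaled to the same summed value (TPM), the median moved up by 0.216 giving 6512 higher and 2510 lower genes. The higher genes then made up 72.2% of the calls, where they were 57.7% without rescaling. Counts of lists under TPM, given below, include this shift of all genes.

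The genes with the largest rise towards N2B27 belong to neural and signalling groups. Wnt1 (chromosome 15, 98789857 to 98793830), a WNT ligand of the midbrain-hindbrain boundary and roof plate, had 0.34, 3.01 and 0.75 FPKM in EBs and 91.3, 59.13 and 91.59 FPKM in N2B27 (log2 5.25 ± 0.38, adjusted p = 3.26e-08). Apcdd1, a WNT antagonist at the membrane, had 1.76, 3.05 and 1.25 against 142.33, 68.57 and 124.48 FPKM (5.20 ± 0.25). Both sets of libraries were far apart, with N2B27 replicate 2 the lowest of its group for both genes. Pcp4l1, the sensory and nociceptor regulator Prdm12, Kctd12, the growth factor binding protein Igfbp5, the heparin-binding growth factor Ptn, Tmem132c and the synapse organiser Cbln1 were also among the 10 largest, at log2 differences of 4.12 (Cbln1) to 5.12 (Pcp4l1).

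The 10 largest drops include 4 genes of the pluripotency lists, namely Dppa5a, Tdgf1, Utf1 and Zfp42. Dppa5a (chromosome 9, 78367052 to 78368199), an RNA-binding protein of pluripotent cells, had 672.98, 627 and 724.7 FPKM in EBs and 3.04, 6.42 and 5.49 FPKM in N2B27 (log2 -6.86 ± 0.22, adjusted p = 3.94e-11). Tdgf1 (Cripto), the coreceptor of NODAL, had 273.13, 282.11 and 316.31 against 2.37, 7.06 and 3.13 FPKM (-5.91 ± 0.22). In EBs both genes were below their ES levels of 1049.57 to 1199.28 FPKM (Dppa5a) and 428.14 to 447.46 FPKM (Tdgf1), in N2B27 they were far lower again, and the cultures did not overlap. Car4, Zscan4f, Dnmt3l, Utf1, Upp1, Zfp42, Trh and Ndrg2 followed, at -5.03 (Car4) to -4.44 (Ndrg2). Car4, a membrane carbonic anhydrase, had 0.9, 1.9 and 1.18 FPKM in ES cells against 146.84, 153.81 and 152.66 FPKM in EBs.

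**Figure D1:**
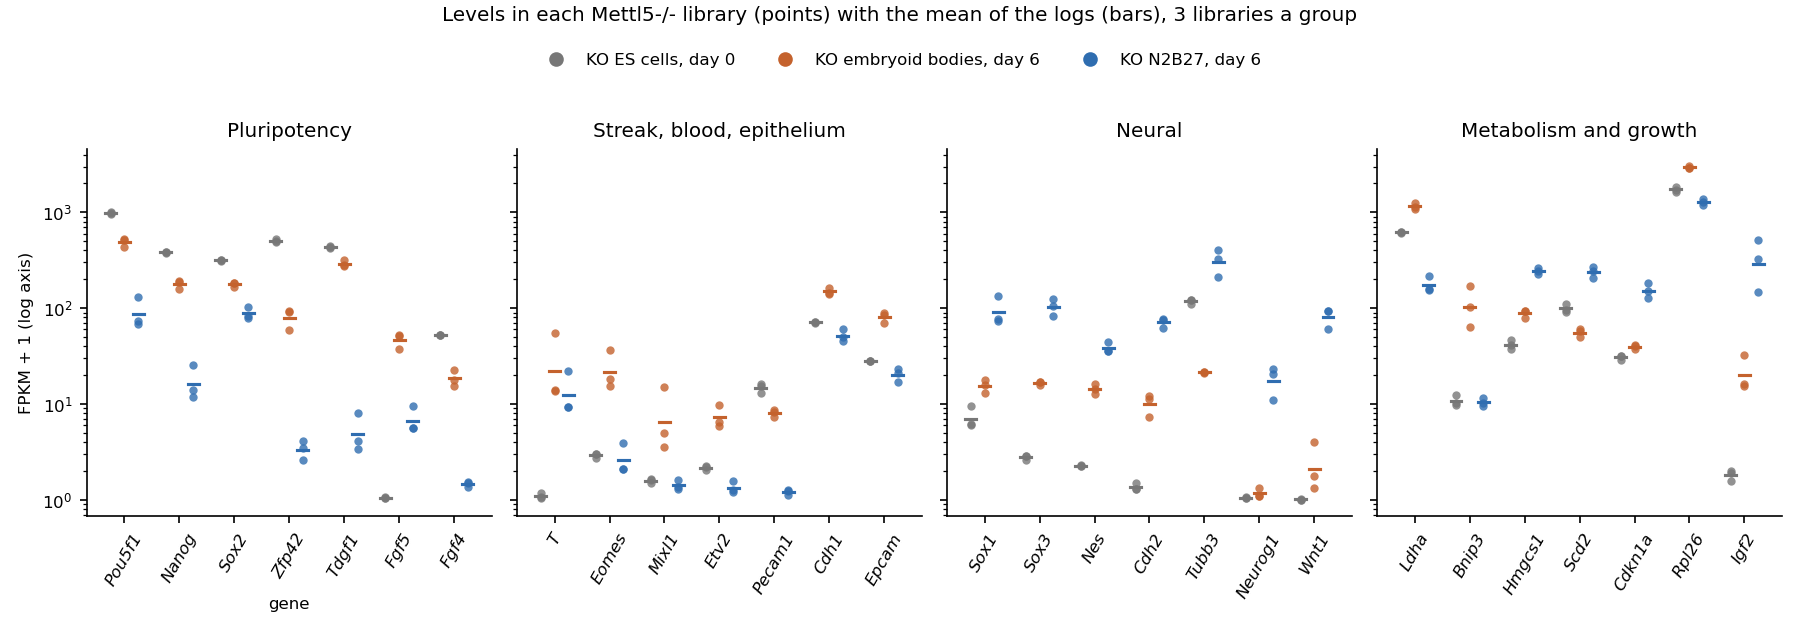
FPKM + 1 on a log axis for 28 genes in each KO library (points) of ES cells (grey), EBs (orange) and N2B27 (blue), with a bar at the mean of the logs of 3 libraries. Pou5f1, Nanog and Fgf5 sit lower in N2B27 than in EBs, Sox1, Tubb3 and Wnt1 sit higher, and T overlaps between the cultures.

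The naive and core pluripotency lists had the lowest medians of the 45 lists. The naive list, genes of the preimplantation-like ground state, had all 20 members tested, of which 18 were lower in N2B27, 1 higher and 1 not called, with a median of -2.70 beside 0.076 over all genes. Zfp42 (Rex1) had 92.05, 57.54 and 89.54 FPKM in EBs and 1.62, 3.08 and 2.45 FPKM in N2B27 (-4.57 ± 0.18, adjusted p = 1.35e-10). Tdh, Fbxo15 and Klf2 differed by -4.17, -4.12 and -3.89. The member that was higher, Jam2, a junction protein, had 3.38, 2.98 and 3.82 FPKM in EBs and 10.91, 5.41 and 11.95 FPKM in N2B27 (1.19 ± 0.20), still below its 61.08 to 69.14 FPKM in ES cells.

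The core circuit was lower but not gone. Pou5f1 (Oct4) had 531.65, 430.12 and 518.04 FPKM in EBs and 66.87, 129.55 and 71.95 FPKM in N2B27 (-2.51 ± 0.21, adjusted p = 1.1e-07). Nanog had 190.54, 158.79 and 186.8 against 10.87, 24.5 and 12.94 FPKM (-3.47 ± 0.21). The groups did not overlap for either gene, and N2B27 replicate 2 was the highest N2B27 library for both. Sox2, which is shared by pluripotent and neural cells, had 180.11, 166.44 and 183.5 FPKM in EBs and 80.95, 102.83 and 78.76 FPKM in N2B27 (-1.01 ± 0.09). Of 18 core genes tested 15 were lower, 1 was not called and 2 were higher, namely the let-7 inhibitors Lin28a (1.13 ± 0.07) and Lin28b (0.99 ± 0.10). Lin28a had 118.9, 114.52 and 109.89 FPKM in EBs and 237.55, 267.77 and 248.87 FPKM in N2B27, with all libraries of both groups above the 89.87 to 92.51 FPKM of ES cells.

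The formative and primed list, which marks the epiblast-like state that follows the naive one, was split. Of 16 tested members 10 were lower (62.5%, against 29.2% of all genes), 4 higher (25%, against 39.7%) and 2 not called (median -0.52). Fgf5, the usual marker of this state, had 51.83, 36.53 and 49.72 FPKM in EBs and 4.57, 8.4 and 4.57 FPKM in N2B27, from 0.03 to 0.07 FPKM in ES cells (-2.81 ± 0.19). Foxd3 (-3.32), Dnmt3b, a de novo DNA methyltransferase (-1.83), and Cldn6, a tight junction claudin (-1.77), were also lower. The members that were higher include Sox3 (2.65 ± 0.14), at 15.86, 15.86 and 14.69 against 105.21, 124.05 and 81.72 FPKM, and Sall2 (1.099 ± 0.09), both of which neural progenitors also express.

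The NODAL and FGF pathways act in primed cells and in the streak. NODAL genes were mostly lower in N2B27, while the counts of FGF and ERK genes depended more on the scaling. All 16 NODAL pathway genes were tested, of which 14 were lower, 1 was higher and 1 was not called (median -1.65). Among the antagonists, Lefty2 had 32.11, 16.19 and 33.11 FPKM in EBs and 0.3, 0.46 and 0.47 FPKM in N2B27 (-4.25 ± 0.22), and Lefty1 differed by -3.50 ± 0.22. The receptor Acvr2b was the member that was higher (0.33 ± 0.07). Of 21 FGF and ERK response genes tested, 14 were lower (66.7%, against 29.2% of all genes) and 6 higher (28.6%, against 39.7%). Under TPM 10 were lower and 6 higher. The ligand Fgf4 had 14.56, 16.8 and 21.75 against 0.48, 0.53 and 0.35 FPKM (-3.67 ± 0.12), and the ERK-induced Etv5 differed by -1.75 ± 0.13. The receptors Fgfr1 (1.15 ± 0.11) and Fgfr2 (2.38 ± 0.23) were higher, the latter at 4.17, 6.08 and 4.21 FPKM in EBs and 30.61, 17.6 and 44.84 FPKM in N2B27.

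Primitive streak genes were more often lower, with large spread between libraries. Of 21 listed genes 18 were tested (median -0.71). Of the 18, 9 were lower (50%, against 29.2% of all genes), 4 higher (22.2%, against 39.7%) and 5 not called. T (Brachyury), which defines the streak and nascent mesoderm, had 53.33, 13.13 and 12.61 FPKM in EBs and 8.21, 20.88 and 8.27 FPKM in N2B27, and the groups overlapped (-0.83 ± 0.44, adjusted p = 0.105). It passed without KO EB replicate 2 (adjusted p = 0.0409), KO EB replicate 3 (0.0391) or KO N2B27 replicate 2 (0.0223). Eomes, a T-box factor of mesendoderm, had 35.46, 14.5 and 17.27 against 1.07, 2.89 and 1.11 FPKM (-3.08 ± 0.28), and Mixl1, Fgf8 and Cer1 differed by -2.19, -1.72 and -1.68. KO EB replicate 1 was the highest EB library for 16 of the 18 tested streak genes, and KO N2B27 replicate 2 the highest N2B27 library for 15. The list summed to 250.8, 84.02 and 91.92 FPKM in EBs and 92.21, 110.4 and 78.47 FPKM in N2B27. Wnt3a (3.04 ± 0.17) and Nkx1-2 (1.94 ± 0.27), which also mark caudal neural and dorsal tissue, were among the members that were higher.

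Markers of differentiated mesoderm and blood were low in both cultures. Of 23 mesoderm and heart genes 9 were tested, and among the 14 under the filter were the heart factors Nkx2-5, Tbx5 and Hand2. Without the filter 8 were higher and 5 lower, and with the filter over all 15 libraries 4 were lower. Of the 9, 5 were higher (55.6%, against 39.7% of all genes) and 2 lower (22.2%, against 29.2%). The receptor Pdgfra had 0.88, 0.83 and 0.67 FPKM in EBs and 7.68, 3.6 and 8.92 FPKM in N2B27 (2.04 ± 0.20). Of 12 tested blood and endothelium genes 9 were lower and 1 higher (median -1.20), against 14 lower without the filter and 2 higher with the filter over all 15 libraries. Etv2, the factor that starts the blood and endothelial programme, had 8.82, 4.86 and 5.53 against 0.55, 0.27 and 0.21 FPKM (-2.43 ± 0.17). The embryonic globin Hbb-bh1 had 1.9, 6.81 and 4.89 FPKM in EBs, and in N2B27 0.39 FPKM in one library and 0 in the other two. Pecam1, an endothelial adhesion protein that ES cells also carry, differed by -2.74 ± 0.12. Etv2, Hbb-bh1 and Pecam1 passed the filter through EB libraries alone and so had to differ. The counts of this list therefore partly follow from the filter. Eng, which reached 1 FPKM in both cultures, was also lower (-1.59 ± 0.13).

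Endoderm and trophoblast markers gave no single direction. Of 18 tested endoderm genes 9 were higher (50%, against 39.7% of all genes) and 5 lower (27.8%, against 29.2%). Without the filter 9 were lower. Afp, a defining marker of visceral endoderm and liver, was at 0 to 0.03 FPKM in all 6 libraries. Sox17 had 4.15, 1.58 and 2.2 FPKM in EBs and 1.24, 2.6 and 3.8 FPKM in N2B27, with full overlap (-0.05 ± 0.28, adjusted p = 0.894). Its sign changed under some settings. The members that were higher include the basement membrane genes Col4a2 at 7.77, 13.23 and 13.24 against 53.98, 42.68 and 110.12 FPKM (2.41 ± 0.28), Lama1 at 2.15 ± 0.28 and Col4a1 at 1.95 ± 0.29, together with the chemokine receptor Cxcr4 (3.09 ± 0.18). N2B27 replicate 3 was the highest for those 3 basement membrane genes. Of 11 tested trophoblast genes 4 were lower (36.4%, against 29.2% of all genes) and 2 higher (18.2%, against 39.7%). These counts became 4 lower and 4 higher under TPM, and 4 were higher without KO N2B27 replicate 1.

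Epithelial genes were lower in N2B27 and the cadherins were exchanged. All 22 simple epithelium genes were tested, 16 lower, 1 higher and 5 not called (median -1.43). Cdh1 (E-cadherin) had 143.59, 140.46 and 162.67 FPKM in EBs and 44.57, 49.22 and 59.32 FPKM in N2B27 (-1.53 ± 0.15, adjusted p = 7.2e-07). Cdh2 (N-cadherin), which neuroepithelium and mesoderm use, had 11.15, 10.22 and 6.37 against 74.29, 61.21 and 75.24 FPKM (2.82 ± 0.15). Neither gene overlapped between the cultures. Esrp1, a splicing factor of epithelial cells (-2.67 ± 0.15), Rab25 (-2.66 ± 0.19) and Epcam (-2.002 ± 0.15) were lower.

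The keratins did not follow the other epithelial genes. Krt8 was the member called higher (0.73 ± 0.21, adjusted p = 0.00585), at 128.87, 108.17 and 92.24 against 149.39, 163.14 and 242.8 FPKM. Krt18, its partner in the keratin filament, had 131.49, 147.41 and 113.52 against 143.12, 149.18 and 222.76 FPKM and missed the threshold (0.37 ± 0.18, adjusted p = 0.0882). It passed under TPM (0.594, adjusted p = 0.0126) and without KO N2B27 replicate 1 (0.484, adjusted p = 0.0492), and without that library 3 epithelial genes were called higher. N2B27 replicate 3 was the highest N2B27 library for 20 of the 22 epithelial genes.

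The list for the cadherin and matrix switch had 24 tested genes (median 1.01). Of these 15 were higher (62.5%, against 39.7% of all genes) and 3 lower (12.5%, against 29.2%). The integrin ligand Thbs1 had 10.45, 25.31 and 12.51 FPKM in EBs and 96.76, 114.19 and 154.25 FPKM in N2B27 (2.92 ± 0.26). Vim, the intermediate filament of mesenchymal and neural progenitor cells, had 121.78, 124.77 and 88.1 against 625.49, 496.93 and 784.18 FPKM (2.49 ± 0.17). Of 13 tested fibroblast and feeder genes 7 were higher (53.8%, against 39.7% of all genes), with Acta2 at 2.76 ± 0.40. The other direction held 4 (30.8%, against 29.2%), with Col1a1 at 4.58, 6.36 and 4.65 against 1.4, 1.65 and 2.26 FPKM (-1.16 ± 0.16). Of 15 tested collagen genes 10 were higher (66.7%, against 39.7% of all genes), such as Col2a1 (2.58 ± 0.18) and Col11a1 (1.96 ± 0.11). The other direction held 3 (20%, against 29.2%). Without the filter 18 were higher and 5 lower.

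Neural progenitor genes were higher in N2B27 almost throughout. Of 36 listed genes 31 were tested, of which 28 were higher (22 of them at least 2-fold), 1, Sox2, was lower and 2 were not called, with a median of 1.83 beside 0.076 over all genes. Sox1, the earliest marker of neuroectoderm, had 16.73, 14.58 and 11.99 FPKM in EBs and 76.1, 134.11 and 71.53 FPKM in N2B27 (2.57 ± 0.23, adjusted p = 2.19e-07). Nes, the progenitor intermediate filament, had 15.07, 11.8 and 13.22 against 34.41, 34.32 and 43.13 FPKM (1.41 ± 0.12). Irx5, Zic1 and Pax2, transcription factors of early neural tissue, differed by 3.94, 3.73 and 3.67. Pax6, which marks forebrain and ventral progenitors, was low in both cultures at 2.01, 3.2 and 1.98 against 2.28, 4.06 and 2.86 FPKM and was not called (0.26 ± 0.18, adjusted p = 0.231).

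Regional markers of the midbrain and hindbrain went both ways. Of 20 tested patterning genes 11 were higher (55%, against 39.7% of all genes) and 7 lower (35%, against 29.2%), with a median of 1.21, and 4 were lower under TPM. The roof plate and midbrain floor plate factor Lmx1a had 0.21, 0.15 and 0.18 FPKM in EBs and 21.72, 9.56 and 25.3 FPKM in N2B27 (3.97 ± 0.24), and Lmx1b differed by 3.44 ± 0.14. Fgf17, a ligand of the midbrain-hindbrain boundary that ES cells carry at 31.47 to 35.2 FPKM, went the other way at 15.32, 7.82 and 13.88 against 1.61, 1.59 and 1.4 FPKM (-2.35 ± 0.17). Of 26 Hox genes, which pattern hindbrain and trunk, only 5 passed the filter and 4 of these were lower, against 16 lower without the filter. Hoxb2 and Hoxb3 passed it through EB libraries alone and so had to differ, with Hoxb2 at 3.42, 3.09 and 1.03 against 0.03, 0.14 and 0.03 FPKM (-1.64 ± 0.22). Hox levels were low in both cultures, the list summing to 9.52 to 17.45 FPKM in EBs and 4.02 to 7.2 FPKM in N2B27.

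Neuronal genes were present as well. Of 33 tested neuron genes 30 were higher, 1 lower and 2 not called (median 1.45). Tubb3, the neuronal tubulin, had 20.18, 20.72 and 20.63 FPKM in EBs and 327.59, 209.39 and 405.37 FPKM in N2B27 (3.82 ± 0.21, adjusted p = 2.06e-09), with 110.26 to 121.16 FPKM in ES cells. Neurog1, a proneural factor of sensory lineages, had 0.1, 0.31 and 0.1 against 19.28, 10.11 and 22.25 FPKM (3.90 ± 0.21). KO N2B27 replicate 2 was the lowest N2B27 library for both genes, and replicate 3 was the highest for 26 of the 33. Gad1, the enzyme that makes GABA, was the member that was lower (-0.99 ± 0.18).

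Glial markers went both ways. Of 19 glial genes 10 were tested, 7 higher (70%, against 39.7% of all genes) and 2 lower (20%, against 29.2%). Without the filter 6 were lower. Gfap, which defines astrocytes, was at 0.06, 0 and 0.06 FPKM in N2B27 and at 0.13 to 0.2 FPKM in EBs. Fabp7 (2.69 ± 0.23) and Sox9 (2.91 ± 0.15), which radial glia share with progenitors, were higher. Mbp, a myelin protein, was higher at 1.12, 2.27 and 1.96 against 12.11, 8.25 and 14.9 FPKM (2.18 ± 0.19). The glutamate transporter Slc1a3 (-1.27 ± 0.13) and Aldh1l1 (-0.67 ± 0.11) were lower.

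Neural crest factors were higher in N2B27. Of 15 tested genes 11 were higher and 2 lower (median 1.30), the latter Foxd3 and the receptor Erbb3 (-1.12 ± 0.14). Pax7 had 0.12, 0.27 and 0.04 FPKM in EBs and 16.21, 10.17 and 16.57 FPKM in N2B27 (3.72 ± 0.16), Tfap2b 0.54, 1.11 and 0.43 against 19.65, 9.03 and 27.08 FPKM (3.43 ± 0.29), and Pax3 0.85, 0.99 and 0.33 against 20.26, 8.4 and 20.27 FPKM (3.25 ± 0.28). Replicate 2 was the lowest N2B27 library for all 3, and the list summed to 235.5, 119.2 and 232.7 FPKM in N2B27 and 46.22 to 53.93 FPKM in EBs. Pax3 and Pax7 also mark dorsal neural tube, so these genes do not separate crest cells from dorsal progenitors. Both passed the filter through N2B27 libraries alone and so had to differ.

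**Figure D2:**
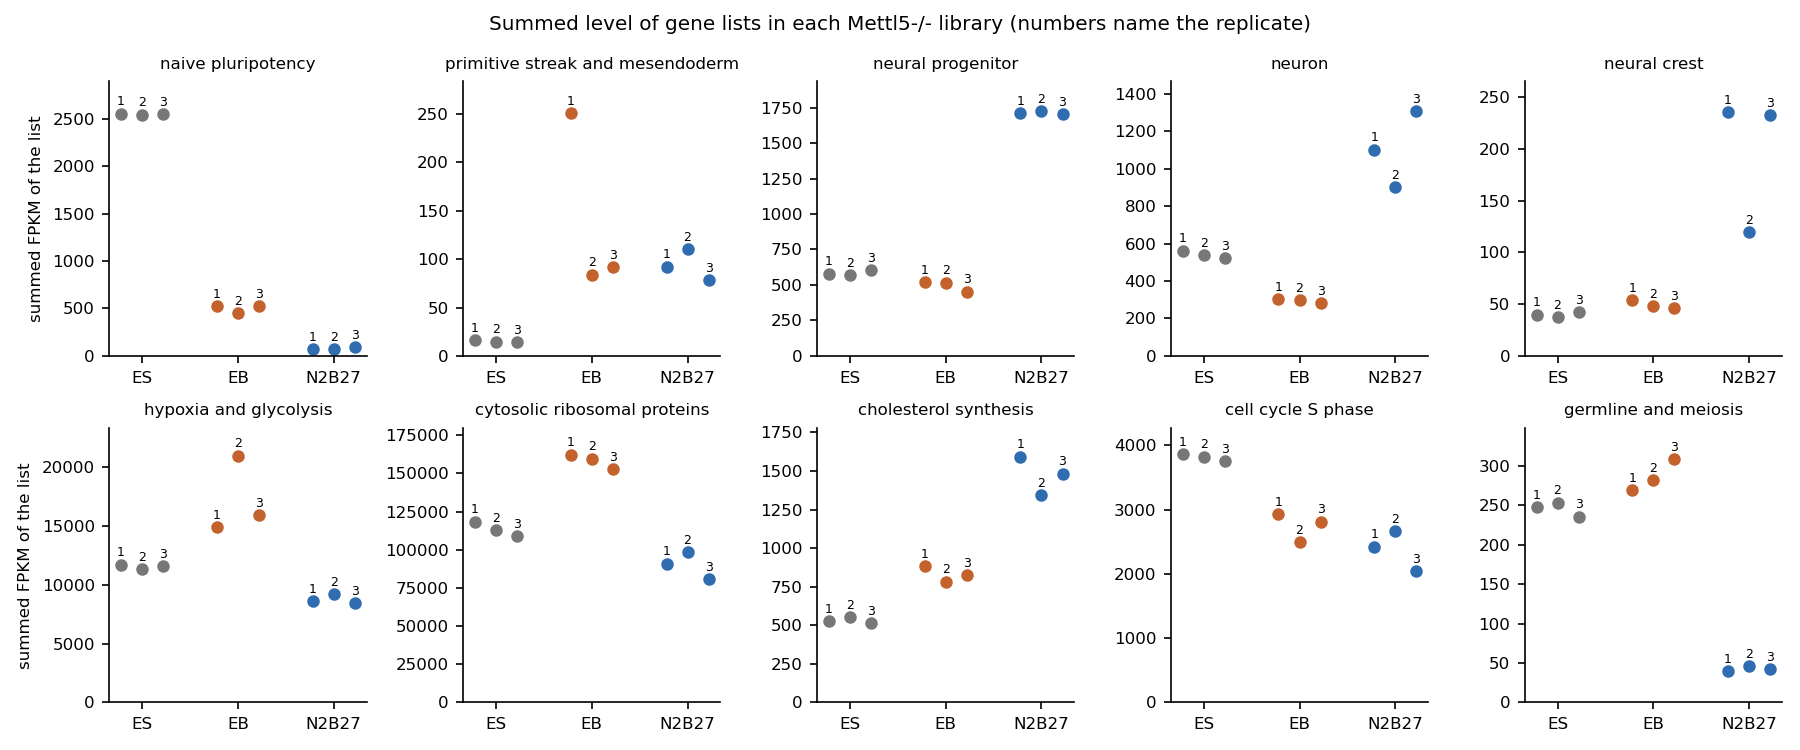
Summed FPKM of 10 gene lists in each KO library of ES cells, EBs and N2B27, with the replicate number above each point and axes from 0. The streak sum of EB replicate 1 (250.8) and the neural crest sum of N2B27 replicate 2 (119.2) stand apart from their groups, as does the hypoxia and glycolysis sum of EB replicate 2 (21000).

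The signalling pathways that pattern the neural tube were among the higher groups. Of 26 tested WNT pathway genes 17 were higher (65.4%, against 39.7% of all genes) and 4 lower (15.4%, against 29.2%), with a median of 1.53. Wls, which carries WNT ligands to the surface, had 15.52, 24.77 and 14.23 FPKM in EBs and 199.91, 131.72 and 205.74 FPKM in N2B27 (3.24 ± 0.20), and the feedback inhibitor Nkd1 differed by 3.59 ± 0.16. The transcription factor Tcf7 (-0.998 ± 0.11) and the receptor Fzd5 (-0.99 ± 0.10) were lower. Of 15 tested Notch genes 12 were higher and 2 lower (median 1.1). The ligand Dll1 had 1.35, 4.09 and 1.26 against 22.51, 17.22 and 21.2 FPKM (2.82 ± 0.23), and the Notch target Hes5 0.28, 0.78 and 0.31 against 9.44, 8.07 and 6.44 FPKM (2.63 ± 0.18).

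Of 12 tested Hedgehog genes 8 were higher (66.7%, against 39.7% of all genes) and 3 lower (25%, against 29.2%). The coreceptors Boc (2.97 ± 0.14), Cdon (2.90 ± 0.21) and Gas1 (2.79 ± 0.17) and the repressor-forming factor Gli3 (2.80 ± 0.12) were higher. Gli1, a transcriptional target of the pathway, was lower at 9.58, 7.48 and 9.12 FPKM in EBs, 1.24, 2.95 and 1.43 FPKM in N2B27 and 39.91 to 47.99 FPKM in ES cells (-1.80 ± 0.19). Of 17 tested BMP genes 10 were higher (58.8%, against 39.7% of all genes) and 3 lower (17.6%, against 29.2%). The ligands Bmp6 (3.44 ± 0.23) and Bmp7 (3.08 ± 0.20) were higher, as was the extracellular antagonist Nog (2.56 ± 0.34), whereas the inhibitory Smad7 was lower (-1.47 ± 0.11).

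Retinoic acid genes divided evenly, 7 higher and 7 lower of 15 tested (46.7% each, against 39.7% and 29.2% of all genes). Crabp2, which carries retinoic acid to its receptors, had 29.81, 39.55 and 26.85 FPKM in EBs and 436.68, 285.79 and 437.95 FPKM in N2B27 (3.54 ± 0.22), and Rdh10, which makes the retinoic acid precursor, differed by 2.37 ± 0.17. Cyp26a1, which degrades retinoic acid, was lower at 10.52, 8.44 and 4.98 against 0.41, 2.11 and 1.05 FPKM (-2.06 ± 0.26). Of 25 tested axon guidance and synapse adhesion genes 20 were higher and 4 lower (median 1.29). The ligand Efna5 had 2.99, 6.27 and 3.57 against 49.91, 37.86 and 56.11 FPKM (3.25 ± 0.19), and the semaphorin receptor Plxna2 1.17, 1.06 and 0.64 against 21.61, 18.97 and 23.04 FPKM (3.51 ± 0.13). The netrin receptor Unc5b (-1.83 ± 0.14) and the ligand Slit3 (-0.998 ± 0.14) were lower.

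**Figure D3:**
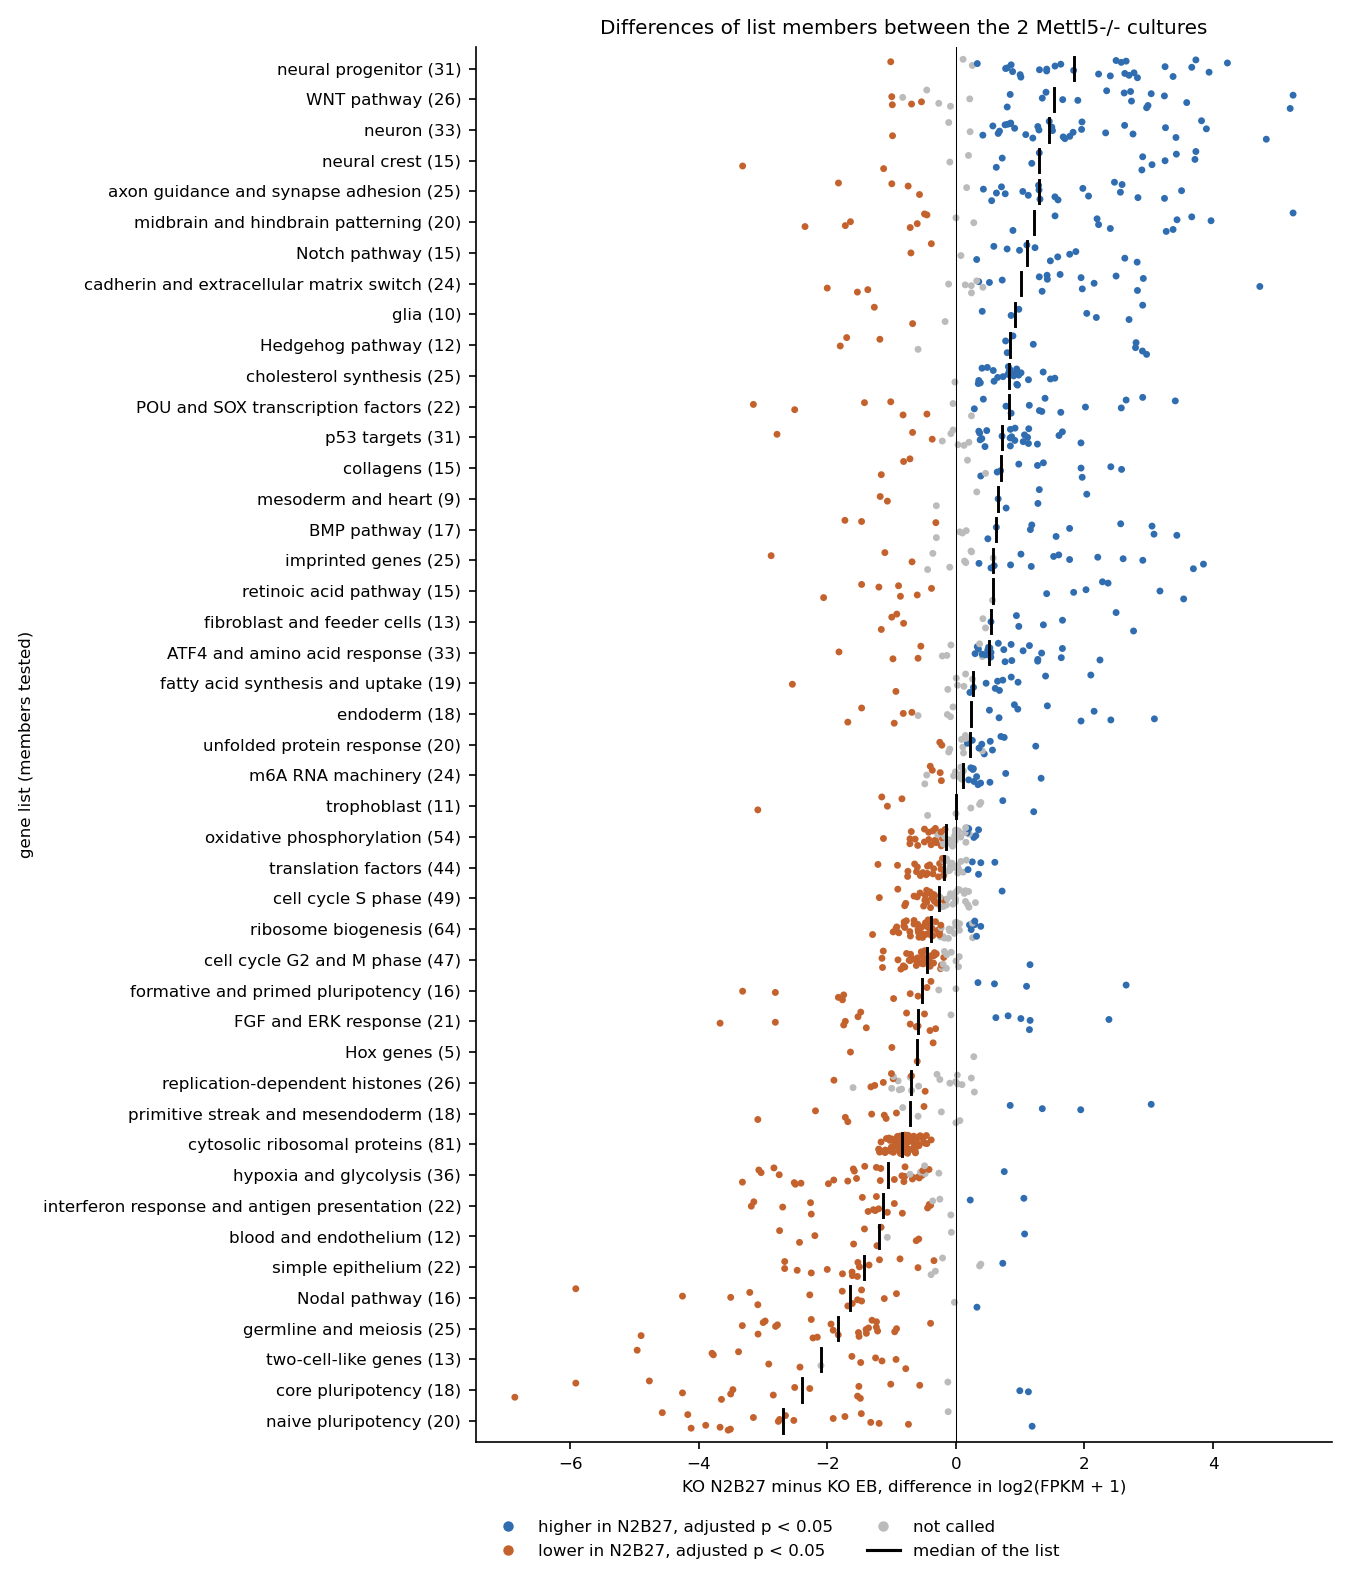
Difference in log2(FPKM + 1), KO N2B27 minus KO EB, of each tested member (points) of 45 gene lists, sorted by the list's median (black bar), with the number tested in parentheses. Blue members were called higher, orange lower and grey not called. Naive pluripotency lies at the bottom with a median of -2.70 and neural progenitor at the top with 1.83.

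The genes that were at least 2-fold higher also differed from the rest in length. Their span in the RefSeq annotation of GRCm38.p6, introns included, had a median of 38.02 kb (1147 genes with a span), against 14.5 kb for genes at least 2-fold lower (959) and 23.2 kb for all tested (12442). Spans over 100 kb made up 29.5%, 4.78% and 12.8% of these classes. FPKM is divided by transcript length, and whether the authors' processing favours long or short genes was not tested.

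Metabolic genes separated the cultures in opposite directions, and the promoters of 4 of them are shown because they hold a sequence element of a well known regulator of their pathway. Hypoxia-inducible factors bind ACGTG, and sterol regulatory element binding proteins bind elements such as TCACNCCAC. Both motifs were searched on both strands in the 250 bases before each RefSeq transcript start, and capitals mark the matches, with overlapping matches merged. The 3 hypoxia promoters were added after their values had been seen.
Ldha, chr7:46845554-46845803, plus strand: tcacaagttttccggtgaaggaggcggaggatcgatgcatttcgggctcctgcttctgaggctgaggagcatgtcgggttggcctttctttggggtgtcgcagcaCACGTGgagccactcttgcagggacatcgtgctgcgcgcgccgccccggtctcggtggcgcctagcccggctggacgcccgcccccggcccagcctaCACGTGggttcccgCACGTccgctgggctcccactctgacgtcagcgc
Bnip3, chr7:138909507-138909756, minus strand: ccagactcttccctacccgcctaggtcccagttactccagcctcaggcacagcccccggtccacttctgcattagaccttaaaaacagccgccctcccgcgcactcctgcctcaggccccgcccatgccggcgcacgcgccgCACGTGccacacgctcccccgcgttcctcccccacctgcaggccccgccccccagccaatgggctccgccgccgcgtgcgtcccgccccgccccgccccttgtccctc
Slc16a3, chr11:120948817-120949066, plus strand: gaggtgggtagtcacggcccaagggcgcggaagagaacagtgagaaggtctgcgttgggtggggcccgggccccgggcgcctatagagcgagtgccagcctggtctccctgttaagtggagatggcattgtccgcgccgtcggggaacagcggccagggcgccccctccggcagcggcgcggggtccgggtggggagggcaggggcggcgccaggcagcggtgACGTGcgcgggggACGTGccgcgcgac
Hmgcs1, chr13:119690101-119690350, plus strand: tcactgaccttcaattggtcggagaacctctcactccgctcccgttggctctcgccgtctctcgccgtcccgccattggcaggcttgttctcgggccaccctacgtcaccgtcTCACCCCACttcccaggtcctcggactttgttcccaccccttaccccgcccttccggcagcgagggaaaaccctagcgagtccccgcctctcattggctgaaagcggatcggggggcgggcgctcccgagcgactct
Sequences and coordinates are those of RefSeq on GRCm38.p6. A match describes the letters and is neither a bound site nor a cause of the values.

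Hypoxia and glycolysis genes were mostly lower in N2B27. Of 37 genes 36 were tested, 30 lower, 1 higher and 5 not called (median -1.06). Ldha, which turns pyruvate into lactate, had 1095.2, 1263.99 and 1127.61 FPKM in EBs, 155.53, 213.15 and 152.45 FPKM in N2B27 and 613.87 to 624.95 FPKM in ES cells (-2.75 ± 0.12, adjusted p = 2.17e-10). Bnip3, a hypoxia-induced mitophagy receptor, had 63.05, 169.59 and 100.75 against 10.46, 8.58 and 9.12 FPKM (-3.32 ± 0.29). Slc16a3, the lactate exporter, had 101.26, 172.24 and 124.73 against 14.95, 21.5 and 16.2 FPKM (-2.83 ± 0.20). Pfkp (-3.07) and Pdk1 (-3.03) were also lower, and Pfkfb4 was the member that was higher (0.75 ± 0.11).

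EB replicate 2 was the highest EB library for 35 of the 36 tested hypoxia and glycolysis genes, and the list summed to 14900, 21000 and 15950 FPKM in EBs, 8429 to 9190 FPKM in N2B27 and 11340 to 11720 FPKM in ES cells. Without EB replicate 2, 28 of the 36 were lower. The ACGTG letters were in the promoter window of 19 of 34 list genes with an entry (55.9%), of 25.3% of the 10009 tested genes with an entry and of 16.6% of all 32851 promoters. A gene with several starts counts once if any window has a match, and base composition, which affects such matches, was not matched between the groups.

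Sterol genes went the other way. All 25 cholesterol synthesis genes were tested, 24 were higher, none lower and 1 not called (median 0.83). Hmgcs1, the first committed step of the pathway, had 92.64, 78.57 and 91.28 FPKM in EBs, 263.95, 224.78 and 243.86 FPKM in N2B27 and 36.78 to 45.12 FPKM in ES cells (1.47 ± 0.11, adjusted p = 4.75e-08). Hsd17b7 and Nsdhl, which act later in the pathway, differed by 1.54 and 1.36. The groups did not overlap for these genes. The TCACNCCAC letters were in the window of 1 of 17 list genes with an entry (5.88%), against 1.27% of tested genes and 1.05% of all promoters, so Hmgcs1 was the one match.

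Of 19 tested fatty acid genes 11 were higher and 2 lower. The desaturase Scd2 had 59.57, 56.04 and 48.74 FPKM in EBs and 242.01, 206.69 and 266.54 FPKM in N2B27 (2.10 ± 0.10), and Scd1 differed by 1.39 ± 0.16. The fatty acid binding protein Fabp3 was lower at 101.43, 137.53 and 113.89 against 13.82, 16.3 and 31 FPKM (-2.54 ± 0.22). The oxidative phosphorylation list had 54 tested genes, 21 lower, 6 higher and 27 not called, but 9 lower and 17 higher under TPM, so it has no direction that holds under both scalings. Its higher count was 2 or 3 without KO EB replicate 2, KO EB replicate 3, KO N2B27 replicate 1 or KO N2B27 replicate 2.

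All 81 cytosolic ribosomal protein genes were lower in N2B27, and 80 of 81 were under TPM. Their median was -0.83, and 13 were at least 2-fold lower. In the WT cultures the same difference had a median of -0.66. Of these genes 0 were called for a difference between KO and WT. Rpl26 had 3065.82, 2915.27 and 2872.31 FPKM in EBs, 1288.59, 1382.48 and 1183.09 FPKM in N2B27 and 1644.95 to 1845.51 FPKM in ES cells (-1.20 ± 0.10, adjusted p = 7.35e-08). Rpl23a, Rpl13a and Rps12 differed by -1.20, -1.19 and -1.17. The list made up 28.5% to 29.4% of the summed FPKM in EBs, 17.9% to 20.5% in N2B27 and 21.85% to 23.01% in ES cells, and replicate 2 was the highest N2B27 library for 75 of the 81 genes. Near-identical pseudogenes share reads with these genes, so single members are uncertain.

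Ribosome assembly and translation factors moved less. Of 64 ribosome biogenesis genes 42 were lower and 6 higher (median -0.39), which became 26 lower and 11 higher under TPM. The nucleolar GTPase Gnl3 had 219.67, 227.1 and 246.18 against 84.81, 107.83 and 88.77 FPKM (-1.30 ± 0.11), and the chaperone Npm1 differed by -0.92 ± 0.08. The higher count was 1 without KO EB replicate 2 and 2 without KO N2B27 replicate 2. Of 44 translation factors 21 were lower and 5 higher, and under TPM 13 lower and 14 higher, so they have no direction of their own. Eif4a2, an RNA helicase of initiation, was lower (-1.21 ± 0.10) and Eif4g2 higher (0.61 ± 0.09).

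Of 24 m6A machinery genes 11 were higher (45.8%, against 39.7% of all genes) and 4 lower (16.7%, against 29.2%). The list's median of 0.10 was near the 0.076 of all genes. Under TPM 18 were higher and 0 lower, where 6512 of all 12459 genes were higher and 2510 lower. The list's median under TPM, 0.33, was again near that of all genes, 0.292. Without KO N2B27 replicate 3 the lower count was 2. The reader Igf2bp3 had 36.05, 34.32 and 35.03 FPKM in EBs and 86.81, 92.45 and 89.44 FPKM in N2B27 (1.33 ± 0.06, adjusted p = 2.17e-10), with no overlap. The demethylase Fto (0.53 ± 0.07) and the writer subunit Rbm15b (0.77 ± 0.08) were higher. Zcchc4, which methylates the large subunit RNA, was lower (-0.40 ± 0.08) and lost its call under TPM (adjusted p = 0.0617).

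Mitotic genes were mostly lower in N2B27, while S phase genes had no direction that held under both scalings. Of 47 genes of the G2 and M phases 37 were lower and 1 higher (median -0.46), and 25 and 4 under TPM. The mitotic kinase Bub1 had 36.56, 48.08 and 48.25 against 20.77, 20.67 and 16.89 FPKM (-1.14 ± 0.12), and Cdc25b, a phosphatase, was the member that was higher (1.15 ± 0.16). Of 49 S phase genes 25 were lower and 1, Rrm2, higher (median -0.26), but 10 lower and 12 higher under TPM, and 15 lower without KO N2B27 replicate 3. Rrm2 had 85.9, 65.79 and 76.66 against 128.98, 140.97 and 107.75 FPKM (0.72 ± 0.11). Replicate 2 was the highest N2B27 library for 44 of the 49 S phase genes and 36 of the 47 mitotic genes. Mycn was lower (-0.53 ± 0.18, adjusted p = 0.017), and lost its call under TPM and without KO EB replicate 1, KO EB replicate 3, KO N2B27 replicate 1 or KO N2B27 replicate 3 (adjusted p = 0.0583 to 0.11).

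Of 31 tested p53 target genes 22 were higher and 3 lower (median 0.72). Cdkn1a (p21), which halts the cell cycle, had 40.54, 36.6 and 38.86 FPKM in EBs and 151.43, 127.57 and 180.52 FPKM in N2B27 (1.95 ± 0.10, adjusted p = 1.02e-09). Plk2 (1.60 ± 0.09) and Btg2 (1.27 ± 0.09) were higher, and the pro-apoptotic Pmaip1 (Noxa) was lower at 19.71, 14.76 and 20.02 against 1.56, 1.5 and 2.28 FPKM (-2.78 ± 0.14). Of 33 tested genes of the ATF4 and amino acid response 24 were higher and 4 lower (median 0.52). The stress factor Atf3 had 4.16, 7.02 and 3.16 against 23.85, 20.33 and 33.32 FPKM (2.24 ± 0.24), Sesn2, which restrains growth signalling, differed by 1.66 ± 0.08, and Nupr1 by -1.82 ± 0.20. Of 20 unfolded protein response genes 10 were higher (50%, against 39.7% of all genes), led by Herpud1 (1.24 ± 0.14), and 2 lower (10%, against 29.2%). The lower count was 0 under TPM and 1 without any one of the KO EB libraries, KO N2B27 replicate 1 or KO N2B27 replicate 2.

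Genes of early embryo and germline programmes were lower in N2B27. All 25 tested germline and meiosis genes were lower (24 under TPM), with a median of -1.83. Sycp3, of the meiotic chromosome axis, had 33.58, 33.39 and 37.26 FPKM in EBs, 3.53, 4.4 and 2.64 FPKM in N2B27 and 5.94 to 7.8 FPKM in ES cells (-2.999 ± 0.17). Stra8, which starts meiosis, had 6.83, 13.14 and 8.79 FPKM in EBs and 0, 0.08 and 0 FPKM in N2B27 (-3.32 ± 0.16). Of 13 tested 2-cell-like genes 12 were lower (median -2.10), with Zscan4f at 41.72, 27.52 and 57.79 against 0.51, 0.29 and 0.22 FPKM (-4.96 ± 0.42). The 21 listed 2-cell-like genes in the table summed to only 2.46 to 3.14 FPKM in the N2B27 libraries. Members that passed the filter through EB libraries alone, such as Zscan4f and Stra8, had to differ. The counts of both lists therefore partly follow from the filter. The Zscan4 genes are near-identical copies that share reads, so the split among them is uncertain.

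Interferon and antigen presentation genes were mostly lower, 17 of 22 tested, with 2 higher (median -1.13). Irf1, a transcription factor of the response, had 51.82, 39.22 and 52.6 FPKM in EBs and 3.87, 4.67 and 4.49 FPKM in N2B27 (-3.18 ± 0.13). The immunoproteasome subunits Psmb8 (-3.14 ± 0.19) and Psmb10 (-2.26 ± 0.16) were lower, while the peptide transporter Tap1 was higher at 5.34, 5.53 and 6.84 against 12.72, 13.05 and 14.17 FPKM (1.06 ± 0.12). The higher count was 1 without any single one of the 6 libraries. Of 26 tested replication-dependent histone genes 8 were lower (30.8%, near the 29.2% of all genes) and none higher (against 39.7%). Under TPM 5 of these histone genes were lower and 1 higher, and 5 were lower without KO N2B27 replicate 3. Their mRNAs lack a poly(A) tail and the libraries were selected with oligo(dT), so these values cover only what the selection let through.

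Of 25 tested imprinted genes 14 were higher (56%, against 39.7% of all genes) and 3 lower (12%, against 29.2%), with a median of 0.58. The growth factor Igf2 had 15.1, 31.54 and 14.47 FPKM in EBs, 322.6, 144.64 and 516.48 FPKM in N2B27 and 0.55 to 0.97 FPKM in ES cells (3.85 ± 0.36, adjusted p = 3.28e-07). The cell cycle inhibitor Cdkn1c had 17.47, 26.06 and 14.87 against 228.22, 213.69 and 348.61 FPKM (3.69 ± 0.26). Mest differed by 2.91 ± 0.25 and Nnat by 2.60 ± 0.15. Phlda2, which restrains placental growth, was lower at 67.28, 75.75 and 66.99 against 7.74, 10.65 and 7.86 FPKM (-2.88 ± 0.11). Igf2 was lowest in N2B27 replicate 2 and no library of one culture overlapped with the other for these genes.

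The WT cultures were compared the same way to find where the KO difference departs from that of unmodified cells. Of the 8586 genes called in KO, 8435 had the same sign in WT, and across genes, which are not independent replicates, the 2 sets of log2 differences correlated with r = 0.943. The test of the difference itself, KO minus WT, called 47 genes, with the KO difference above that of WT for 34 (0.273% of those tested) and below for 13 (0.104%), and 1227 genes had an unadjusted p under 0.05. The WT groups hold 2 libraries each, and the number called ranged from 11 (without WT N2B27 replicate 1) to 223 (without KO N2B27 replicate 2) when a library was left out. With only the libraries compared in the fit it was 13, and with a pseudocount of 0.1 it was 19.

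**Figure D4:**
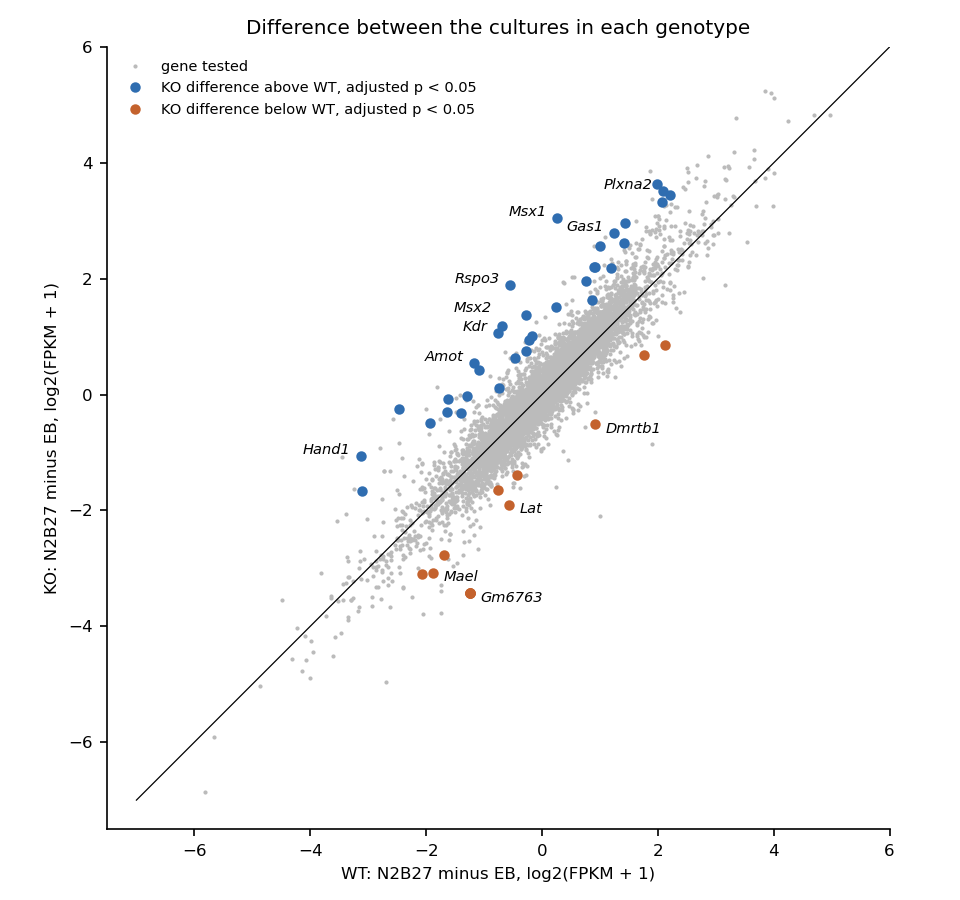
Difference in log2(FPKM + 1), N2B27 minus EB, in WT (horizontal) and KO (vertical) for each of the 12459 tested genes, with the line of equal differences. The 34 blue genes have a KO difference above that of WT and the 13 orange genes below it, each at an adjusted p under 0.05.

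Among the genes with a KO difference above that of WT were regulators of mesoderm and dorsal neural tissue. Hand1, a factor of lateral mesoderm and trophoblast, had 2.09, 3.44 and 2.04 FPKM in KO EBs and 0.62, 0.62 and 0.73 FPKM in KO N2B27, against 15.93 and 16.46 FPKM in WT EBs and 0.79 and 1.15 FPKM in WT N2B27. The N2B27 minus EB difference was -1.07 ± 0.13 in KO and -3.13 ± 0.16 in WT (difference 2.07 ± 0.21, adjusted p = 0.00109). Kdr, the VEGF receptor of blood vessel precursors, had 1.68, 1.5 and 1.22 FPKM in KO EBs and 5.38, 2.84 and 4.6 FPKM in KO N2B27, against 5.42 and 5.03 FPKM in WT EBs and 2.96 and 2.4 FPKM in WT N2B27. Its difference was higher in KO (1.07 ± 0.15) and lower in WT (-0.76 ± 0.18), and these 2 values differed (1.83 ± 0.24, adjusted p = 0.00408). The WT EB libraries lay above the KO EB libraries for both genes. Both calls held under each alternative run.

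Msx1, a homeobox target of BMP in dorsal neural tube, crest and mesoderm, had 9.87, 5.77 and 3.45 FPKM in KO EBs and 74.59, 35.23 and 67.1 FPKM in KO N2B27 (3.05 ± 0.28). In WT it had 21.91 and 17.64 FPKM in EBs and 27.28 and 20.63 FPKM in N2B27 (0.26 ± 0.35), and the difference between genotypes was 2.79 ± 0.45 (adjusted p = 0.0153). Rspo3, a secreted enhancer of WNT signalling, had a difference of 1.90 ± 0.28 in KO and -0.55 ± 0.34 in WT, Msx2 of 1.18 ± 0.21 and -0.69 ± 0.26, and Amot, an angiomotin of the Hippo pathway, of 0.54 ± 0.20 and -1.18 ± 0.24. The genotype difference of Msx1 lost its call without any one of the 4 WT libraries (adjusted p = 0.0566 to 0.0706). That of Rspo3, Msx2 and Amot was lost without most single libraries, and that of Msx2 also with the replicate number as a block (adjusted p = 0.0781). With only the libraries compared in the fit, the call was lost for Msx1 (adjusted p = 0.126), Rspo3 (0.176), Msx2 (0.167) and Amot (0.17).

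Among the genes with a KO difference below that of WT, Lat, an adaptor of T cell receptor signalling, had 4.01, 4.73 and 4.9 FPKM in KO EBs and 0.58, 0.4 and 0.46 FPKM in KO N2B27, against 1.97 and 2.28 FPKM in WT EBs and 1.01 and 1.19 FPKM in WT N2B27 (KO -1.90 ± 0.09, WT -0.57 ± 0.11, difference -1.33 ± 0.14, adjusted p = 0.00109). Dmrtb1, a germline transcription factor, had 2.9, 3.73 and 3.46 against 1.79, 2.15 and 2.2 FPKM in KO (-0.52 ± 0.11) and 1.71 and 1.68 against 4.77 and 3.5 FPKM in WT (0.92 ± 0.13), with a difference of -1.44 ± 0.17 (adjusted p = 0.00242). Their calls held under each alternative run. Gm6763, Gm8764, Gm21293 and Gm21304 carry the same value in every library, 13.46, 10.77 and 15.64 FPKM in KO EBs and 0.36, 0.21 and 0.37 FPKM in KO N2B27, and stand for 1 measurement on near-identical copies (genotype difference -2.18 ± 0.35, adjusted p = 0.0153). Their call was lost without any one of the 4 WT libraries (adjusted p = 0.0526 to 0.0706).

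**Figure D5:**
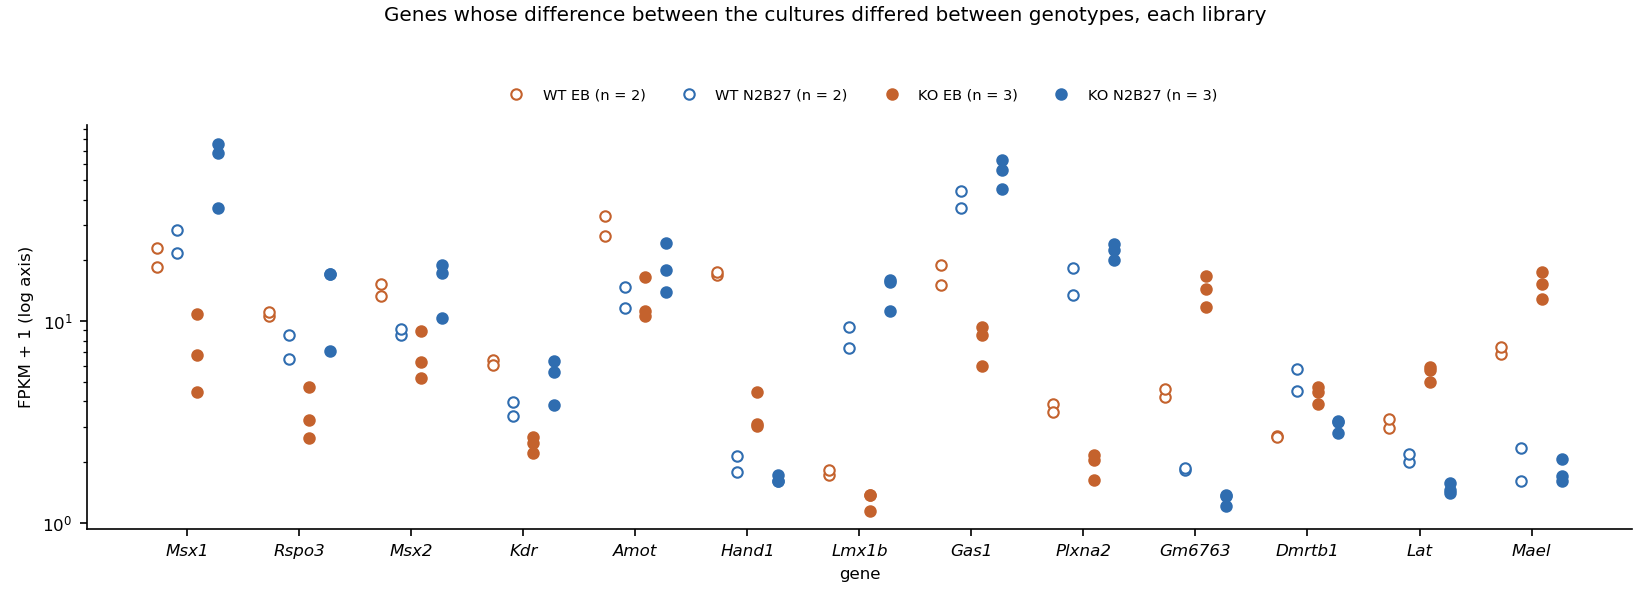
FPKM + 1 on a log axis in each EB (orange) and N2B27 (blue) library of WT (open, n = 2) and KO (filled, n = 3) for 13 genes whose N2B27 minus EB difference differed between genotypes. Hand1 is higher in both WT EB libraries than in any KO EB library, and Msx1 is lower in KO EBs and higher in KO N2B27 than in WT.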

How the data were processed

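Polyadenylated RNA of mouse ES cell cultures was sequenced in 15 libraries. The authors deposited 1 table of FPKM values with 2 decimals. Per the submitters' processing notes, Bowtie2, RSEM and the build mm10 were used; versions, roles, annotation and filters are not given in the sources used here. Near-identical copies are uncertain, since RSEM divides fragments that fit several genes by estimation. There, 27 symbols turned into dates were restored, 2 genes had none, and 18717 IDs matched RefSeq on GRCm38.p6.

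Groups came from sample titles. limma 3.58.1 (R 4.3.3) was fitted to log2(FPKM + 1) with a mean-variance trend and the means of all 6 groups (9 residual degrees of freedom), with two-sided tests and Benjamini-Hochberg adjustment over 12459 genes at 0.05. All adjusted p-values come from it. Fold changes on this scale understate the change of low genes. Values are not counts, so no count test was run. Depth was estimated from low values. At the best totals 56.6% to 63.3% of 297 to 350 values per library came out whole within 0.1 fragments, against a median of 14.9% to 16.3% over totals from 5000000 to 39900000, so the estimate is rough.

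The members, the 45 gene lists and the rule for named genes were chosen with earlier results of these data known. The rule names 23 genes always, the 10 largest non-overlapping changes per direction, up to 4 and 2 members per list in the main and other direction, and up to 6 genes per direction of genotype difference. Alternatives were a pseudocount of 0.1, other filters, median-ratio and TPM scaling, only the libraries compared, a replicate block and leaving out each library. A few members of the lists are not reported here by name.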

Additional observations from a re-analysis of the deposited data

Results flagged for a closer look

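For 16 named genes the N2B27 minus EB difference itself differed between KO and WT cells by the test of that difference (limma, adjusted p under 0.05), and each is given here as the KO minus WT value on the log2(FPKM + 1) scale. The value was above 0 for Msx1 (2.79), Rspo3 (2.44), Hand1 (2.07), Msx2 (1.87), Kdr (1.83), Amot (1.71), the growth arrest and Hedgehog coreceptor gene Gas1 (1.55), the semaphorin receptor Plxna2 (1.43) and Lmx1b (1.22). It was below 0 for the identical copies Gm6763, Gm8764, Gm21293 and Gm21304 (-2.18 each), Dmrtb1 (-1.44), Lat (-1.33) and the piRNA pathway gene Mael (-1.21). Gas1, Plxna2 and Lmx1b were higher in N2B27 in both genotypes, and by more in KO. Mael was lower in N2B27 in both, and by more in KO. The call was lost without WT N2B27 replicate 1 for Plxna2 (adjusted p = 0.0535), and without most single WT libraries for Gas1, Lmx1b and Mael. With only the libraries compared it was also lost for Plxna2 (0.0607), Gas1 (0.126), Lmx1b (0.17) and Mael (0.199). With the replicate number as a block it was lost for Msx2 (0.0781) and Lmx1b (0.0675). Groups of 2 or 3 libraries were too small for a test of single outlying libraries, and no column of the table stood outside the comparisons.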

How the results depend on the processing

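The counts of genes higher and lower stayed within 1.5 times under each alternative run, at 4572 to 6512 and 2510 to 4534. With one library left out they were 4572 to 4876 and 3345 to 3665. The number at least 2-fold higher was 1937 under TPM. The number of genotype differences was 72 without a filter, 19 with a pseudocount of 0.1, 13 with only the libraries compared and 11 to 223 with one library left out. With the replicate block the counts were 4915 higher, 3609 lower and 40 genotype differences. Same-numbered EB and N2B27 libraries deviated from their group means with r = 0.029, -0.181 and 0.046, so the numbers were not taken to pair them. Hsp90b1, lower in N2B27 (-0.22), was at 0.005 under TPM. Sox17, at -0.05, was at 0.129 under TPM and between -0.298 and 0.252 with one library left out. Median-ratio scaling moved the median by -0.045. Over 256 named genes 3266 recomputed values kept sign and call, 49 lost the call, 9 gained it and 4 changed sign, and the cause was not tested. Of the 16 genotype differences of named genes, 76 recomputed values lost the call and 196 kept it. Depth limits genes under 1 FPKM, which were left out.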

Other observations

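KO N2B27 replicate 2 lay between the other N2B27 libraries and the EBs in the summed core pluripotency and neuron lists, but not in all. It was the highest N2B27 library for 15 of 18 core pluripotency genes, 11 of 16 formative genes and 15 of 18 streak genes, and its core list summed to 1023 FPKM against 845.2 and 839.5 FPKM. Its neuron list summed to 901.5 FPKM against 1102 and 1306 FPKM, while its neural progenitor sum, 1727 FPKM, was close to the 1712 and 1705 FPKM of the others. Its streak sum, 110.4 FPKM, was above the 84.02 and 91.92 FPKM of EB replicates 2 and 3, as was the 92.21 FPKM of N2B27 replicate 1. The naive pluripotency sum of N2B27 replicate 2, 73.35 FPKM, was the lowest in N2B27, beside 73.5 and 92.33 FPKM. KO N2B27 replicate 3 was the highest for 20 of 22 epithelial, 19 of 24 cadherin and matrix, 12 of 15 collagen and 18 of 20 unfolded protein response genes. These libraries were singled out after their values had been seen.

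KO EB replicate 2 was the highest EB library for 22 of 33 genes of the ATF4 and amino acid response, besides the hypoxia genes. KO EB replicate 1 was the highest for 43 of 54 oxidative phosphorylation, 46 of 64 ribosome biogenesis and 35 of 49 S phase genes.

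Of 22 tested POU and SOX transcription factors 14 were higher in N2B27 (63.6%, against 39.7% of all genes). The other direction held 6 (27.3%, against 29.2%), and 10 without the filter. Sox21 had 2.65, 2.66 and 1.81 FPKM in EBs and 33.63, 44.73 and 27.65 FPKM in N2B27 (3.41 ± 0.18), and Sox15 had 11.83, 13.05 and 13.2 against 0.64, 0.34 and 0.66 FPKM (-3.15 ± 0.12).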
